A study of Mus musculus with 6 samples.

Results

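The genes described here are 10 components of transforming growth factor beta (TGF-beta) signalling: the ligands Tgfb1, Tgfb2 and Tgfb3, the latent ligand binding protein Ltbp1, the receptors Tgfbr1 and Tgfbr2, the co-receptors Tgfbr3 and Eng, and the intracellular proteins Smad3 and Smad7. They were chosen by name, and a probe was taken as theirs where its RefSeq accession maps to the gene. All 10 had a probe bright enough to test, among 12472 genes tested. They were read by 14 probes, of which 12 were tested.

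The cells were lung fibroblasts in culture, from female mice aged 11 weeks by their labels. The knockout group came from Mmp19 knockout mice and the wild-type group from wild type mice, with 3 arrays each, and the study asked how this matrix metalloproteinase bears on the fibroblast profile. Every animal of both groups had received 0.08 units of bleomycin through the trachea, an injury that scars the lung. Fibroblasts were isolated on day 21 and cultured for 72 hours, so no uninjured control stands beside either group. How the knockout was made, the strain, and how many animals gave each culture are not given in the sources used here. The series text speaks of independent experiments, without saying which arrays belong to which, so p-values measure the spread between these arrays.

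TGF-beta ligands are secreted in a latent form, bound to their own propeptide and to a latent TGF-beta binding protein that anchors the complex in the matrix. Once released, a ligand binds the type II receptor, which recruits and activates the type I receptor, and the type I receptor phosphorylates Smad2 and Smad3. These enter the nucleus with Smad4 and switch on genes of matrix production and contraction, while Smad7 is induced by the same signal and blocks the receptors. In lung fibroblasts the pathway is best known as a driver of collagen production and of the myofibroblast state.

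Values are normalized log2 signals: the log2 of an array's processed signal minus that array's 75th percentile, so that 0 is the brightness of the probe at that percentile. Signals of different probes are not comparable with each other. That percentile corresponded to a processed signal of 138.5 to 327.7 across the 6 arrays, between 41.9% and 53.4% of probes were well above background, and no probe was saturated. Wild-type replicate 2 was the least like its group (r = 0.939 and 0.96 with the other wild-type arrays, against r = 0.984 between those). Mmp19, the targeted gene, was detected above background on 3 of 3 wild-type and 0 of 3 knockout arrays, a knockout level at least 5.33-fold lower (adjusted p = 0.016 by limma). All animals are labelled female, yet 2 Y-linked genes, Ddx3y and Eif2s3y, gave signal above background on each of the 6 arrays. Both were lower on every knockout array than on every wild-type array (log2 difference -2.47 ± 0.79, adjusted p = 0.139, and -3.21 ± 0.94, adjusted p = 0.112), without passing the test. Each probe of Uty, also Y-linked, cleared background on 0 of 3 knockout and 1 of 3 wild-type arrays, and Kdm5d on none. Both probes of Xist, which coats the silenced X, did so on 3 of 3 knockout and 0 of 3 wild-type arrays. The knockout level was at least 7.41-fold higher by the brighter probe (limma adjusted p = 0.00323) and at least 1.85-fold higher by the other (adjusted p = 0.0193). The arrays thus do not match the label of sex, the groups differed in Xist, and an effect of sex cannot be told apart from one of genotype in any result below. Each of 3 slides held 1 array of each group, the pair with the same replicate number.

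Tgfbr2 and Eng, encoding the type II receptor and a co-receptor, rose in the knockout fibroblasts by 2.32-fold and 2.33-fold. None of the 10 genes fell by the limma test, at an adjusted or at an unadjusted p under 0.05. With a limma adjusted p under 0.05 as the threshold, 2 of 10 genes passed, against 4.79% of all genes tested in either direction, 3.3% higher and 1.49% lower. Both calls lay at the edge of the threshold (adjusted p = 0.0492 for Tgfbr2 and 0.0493 for Eng). Neither passed with slide as a block (adjusted p = 0.0681 and 0.0722), a fit in which 1.8% of all genes passed. Leaving out 1 array at a time gave 1 member past the threshold without wild-type replicate 2 (Tgfbr2, adjusted p = 0.0474; Eng, 0.0543) and 0 without each of the 5 others, with adjusted p up to 0.214 for Tgfbr2 and 0.213 for Eng. By sign, 8 of the 10 were higher and 2 were lower in the knockout, with a median log2 difference of 0.71, where the median over all genes was 0.08 and 56.3% of them were higher. At that unadjusted threshold there were 4 members, all higher, against 21.8% of all genes. The groups did not overlap in 4 members (Tgfb2, Ltbp1, Tgfbr2 and Eng), against 31.1% of all genes. Because the arrays are of whole cultures, more cells of a type and more RNA per cell cannot be told apart. An exact two-sided permutation test on a single gene cannot go below 0.1 with 3 arrays against 3, and it gave 0.1 for each of those 4 genes.

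**Figure D1:**
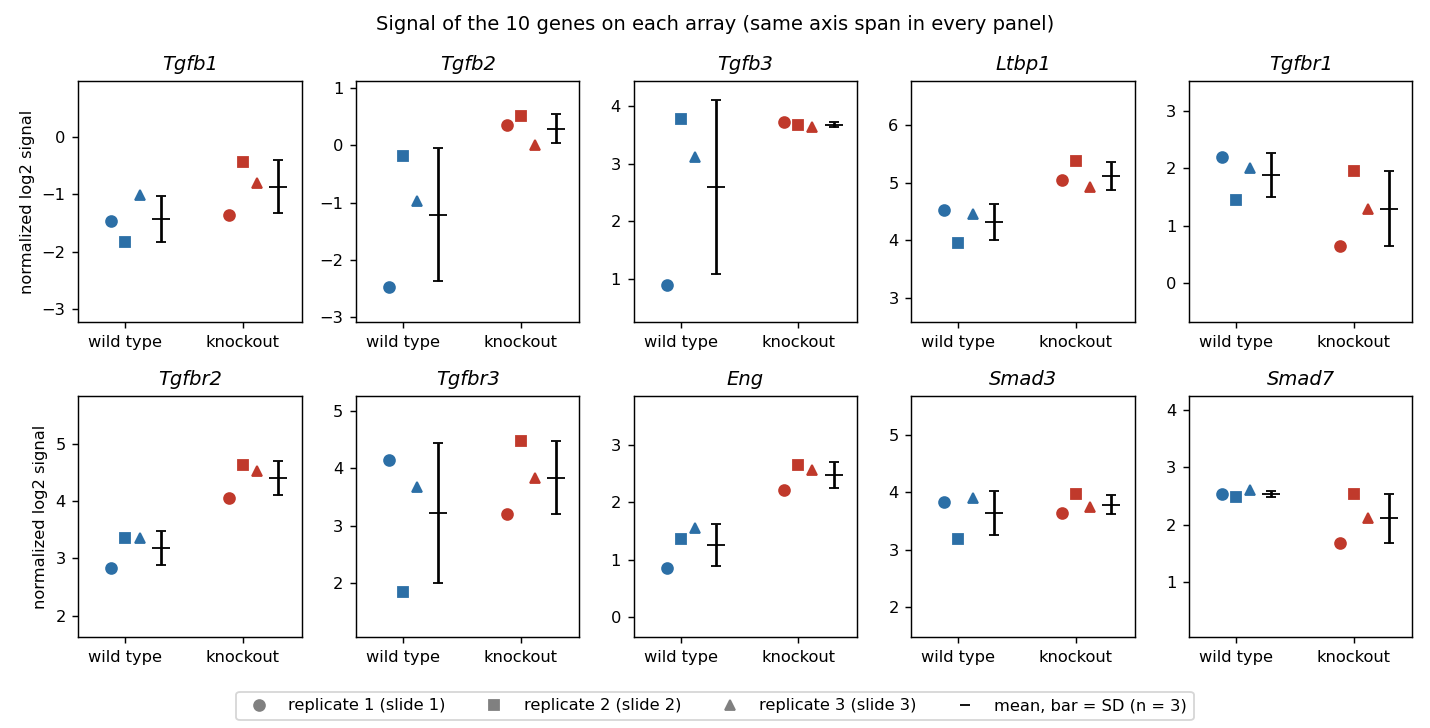
Normalized log2 signal of the probe that stands for each of the 10 genes, with 1 point per array, wild type in blue and knockout in red, the marker shape giving the slide, and the black mark and bar giving the mean and SD (n = 3). The 2 groups do not overlap for Tgfb2, Ltbp1, Tgfbr2 and Eng, and single wild-type arrays lie far below the rest for Tgfb2 and Tgfb3 (replicate 1) and for Tgfbr3 (replicate 2).

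None of the 3 ligands passed the test as reported (Tgfb2 did with array weights alone among 18 alternatives, adjusted p = 0.0380), and the differences of Tgfb2 and Tgfb3 were smaller without wild-type replicate 1. Tgfb1, the ligand most studied in fibrosis, had normalized log2 signals of -1.35, -0.43 and -0.81 in knockout replicates 1, 2 and 3 and of -1.46, -1.82 and -1.01 in wild-type replicates 1, 2 and 3. The groups overlapped, since wild-type replicate 3 lay above knockout replicate 1. The log2 difference was 0.57 ± 0.32 (SE, n = 3 per group; 95% interval -0.20 to 1.33; limma adjusted p = 0.365), and most of it came from slide 2, where it was 1.39 against 0.10 and 0.20 on the others. It was 0.35 without knockout replicate 2, 0.37 without wild-type replicate 2 and 0.81 without knockout replicate 1.

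Tgfb2, the ligand that depends most on the co-receptor Tgfbr3 to reach the type II receptor, was read by a pair of tested probes. The brighter gave 0.35, 0.50 and 0.00 in the knockout and -2.47, -0.20 and -0.98 in wild-type cells. Every knockout array lay above every wild-type array, but the smallest gap, between knockout replicate 3 and wild-type replicate 2, was narrow beside the wild-type SD of 1.15. The log2 difference was 1.498 ± 0.55 (95% interval 0.20 to 2.80; adjusted p = 0.182), the largest among the 10 genes, and fell to 0.87 without wild-type replicate 1. The other Tgfb2 probe differed by 1.63 ± 0.85 (adjusted p = 0.323); its groups overlapped, with knockout replicate 2 at -0.83 below wild-type replicate 2 at -0.51, and it was well above background on 2 of 3 wild-type arrays. Both probes were lowest on wild-type replicate 1.

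Tgfb3, the third ligand, showed the same low array. Its signals were 3.73, 3.67 and 3.64 in the knockout, a spread of 0.05 (SD, n = 3), against 0.89, 3.78 and 3.11 in wild-type cells, a spread of 1.51. Wild-type replicate 2 lay above all knockout arrays and wild-type replicate 1 far below all others. The difference of 1.08 ± 0.69 (95% interval -0.55 to 2.72; adjusted p = 0.413) was 0.23 without wild-type replicate 1 and 1.67 when replicate 2 of that group was left out, and ran from -0.11 on slide 2 to 2.84 on slide 1.

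Ltbp1, which tethers the latent ligand to the matrix, was higher on each knockout array without passing the test. It gave 5.05, 5.39 and 4.92 in the knockout and 4.53, 3.95 and 4.46 in wild-type cells, with no overlap. The log2 difference of 0.80 ± 0.25 (95% interval 0.21 to 1.39) had an unadjusted p of 0.0148 and an adjusted p of 0.128. It was positive on all 3 slides, at 0.52, 1.43 and 0.45, and its range over 18 alternative settings was 0.55 to 0.91, none of which passed.

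Of the signalling receptors Tgfbr2 passed and Tgfbr1 did not, and the difference between them was not tested. Tgfbr2, the type II receptor that binds ligand first and is a constitutively active kinase, gave 4.06, 4.62 and 4.52 in the knockout and 2.84, 3.35 and 3.36 in wild-type cells. The lowest knockout array lay clearly above the highest wild-type array. The log2 difference was 1.22 ± 0.26 (SE, n = 3 per group; 95% interval 0.61 to 1.82), and the within-slide differences were close together at 1.22, 1.27 and 1.16. The second, dimmer Tgfbr2 probe gave -1.38, -1.27 and -0.69 against -2.57, -1.98 and -1.66, also without overlap, and a difference of 0.96 ± 0.31 that did not pass (adjusted p = 0.146). With the mean of both probes in place of the brighter one, the Tgfbr2 call was lost (adjusted p = 0.0782).

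Tgfbr1, the type I receptor that carries the signal to Smad2 and Smad3, was lower by sign. Its tested probe gave 0.65, 1.95 and 1.28 in the knockout and 2.19, 1.45 and 2.003 in wild-type cells. The groups overlapped on knockout replicate 2, and the difference of -0.59 ± 0.38 (95% interval -1.48 to 0.30; adjusted p = 0.415) changed sign between slides, from -1.54 on slide 1 to 0.50 on slide 2. It was -0.26 without knockout replicate 1 and -0.92 without knockout replicate 2. A second Tgfbr1 probe was not well above background on any array and carries no level.

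**Figure D2:**
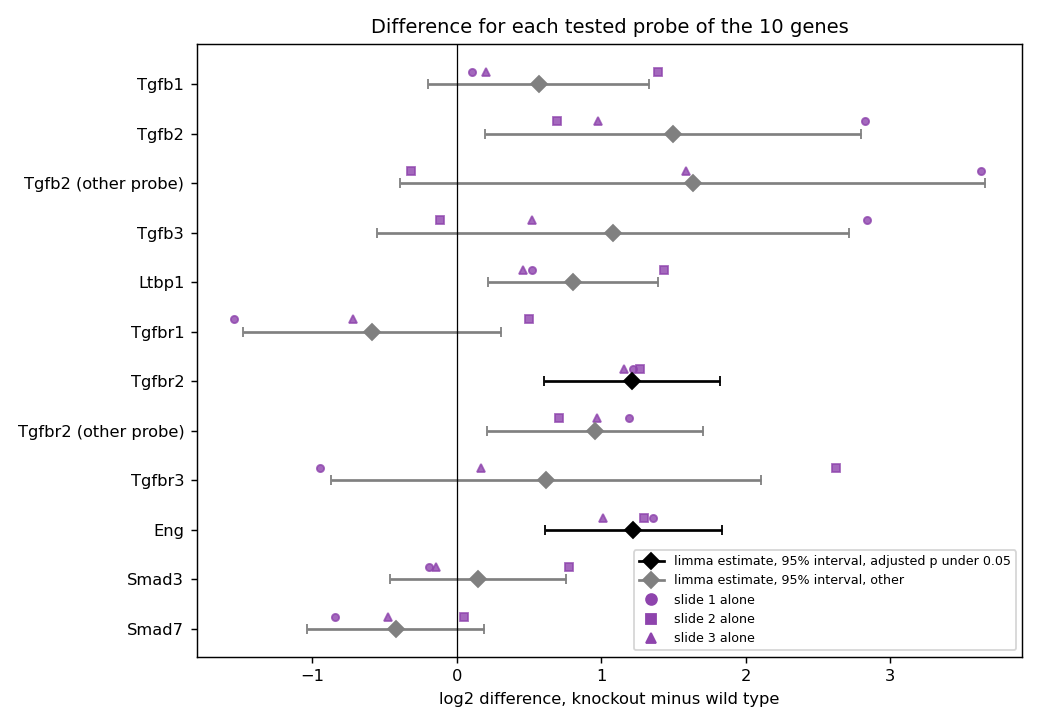
Log2 difference, knockout minus wild type, for the 12 tested probes of the 10 genes. Diamonds are limma estimates with 95% intervals, black where the adjusted p was under 0.05, and purple marks are the differences within each slide; the slides lie close together for Tgfbr2 (1.16 to 1.27) and Eng (1.01 to 1.36) and spread widely for Tgfb3 and Tgfbr3.

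The co-receptors present ligand to the signalling receptors and carry no kinase domain. Eng, endoglin, is a co-receptor best known from endothelial cells and is also made by activated fibroblasts. It gave 2.21, 2.65 and 2.57 in the knockout and 0.86, 1.36 and 1.56 in wild-type cells, with a gap between the groups wider than the spread within the knockout. The log2 difference was 1.22 ± 0.26 (SE, n = 3 per group; 95% interval 0.61 to 1.83), and the slides gave 1.36, 1.29 and 1.01. Of 18 alternative settings, Eng passed in 3 and Tgfbr2 in 3. The log2 difference kept its sign in all of them and ran from 1.02 to 1.37 for Eng and from 1.04 to 1.39 for Tgfbr2.

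Eng doubles as an endothelial marker, so the endothelial list is given beside it. Of its 16 other markers, 11 were tested and 0 passed in the limma fit (1 higher and 1 lower at an unadjusted p under 0.05), with a median log2 difference of 0.02. Of all genes 4.79% passed and 21.8% were under the unadjusted threshold, in either direction. The summed scaled signal of the 11 markers was 21.4 to 28.6 on the knockout arrays and 20.3 to 22.3 on the wild-type arrays, which overlapped. Tek, Tie1, Emcn, Erg and Sox17 were not well above background on any array. By the smallest p, Esam differed by 1.15 ± 0.33 (adjusted p = 0.109) and Egfl7 by -0.60 ± 0.24 (adjusted p = 0.220). Pecam1, an adhesion molecule of endothelial cells, differed by 0.50 ± 0.31 (adjusted p = 0.399). Acvrl1, the type I receptor that pairs with endoglin, was higher on each knockout array (0.29, 1.02 and 0.75 against -0.03, -0.54 and -0.42), a difference of 1.02 ± 0.27 that did not pass (adjusted p = 0.0855).

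Tgfbr3, betaglycan, which captures Tgfb2 in particular, spread widely within the wild type (SD 1.21). It gave 3.20, 4.47 and 3.84 in the knockout and 4.14, 1.84 and 3.67 in wild-type cells. Wild-type replicate 2, the array that stood apart as a whole, was the low value, and the remaining arrays overlapped. The difference of 0.62 ± 0.63 (95% interval -0.87 to 2.11; adjusted p = 0.613) was -0.07 without that array.

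The promoters of the 2 genes that passed are printed as a description, and shared control of these genes was not tested. Each is the 250 bases before the RefSeq start, 5′ to 3′ on the gene's strand, from build GRCm38.p6, at chr9:116175364-116175613 on the minus strand for Tgfbr2 and chr2:32646345-32646594 on the plus strand for Eng.
Tgfbr2: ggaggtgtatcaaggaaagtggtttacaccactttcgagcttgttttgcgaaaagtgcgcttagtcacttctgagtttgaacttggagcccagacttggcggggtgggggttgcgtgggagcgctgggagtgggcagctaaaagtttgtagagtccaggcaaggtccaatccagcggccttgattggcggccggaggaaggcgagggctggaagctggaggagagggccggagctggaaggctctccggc
Eng: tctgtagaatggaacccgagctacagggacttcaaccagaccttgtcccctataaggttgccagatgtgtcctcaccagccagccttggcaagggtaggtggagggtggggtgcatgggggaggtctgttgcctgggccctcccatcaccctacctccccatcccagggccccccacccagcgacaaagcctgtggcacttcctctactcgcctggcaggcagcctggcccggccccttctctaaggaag

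Capitals were kept for 4 motifs searched on both strands, and neither sequence holds any of them. They were the Smad palindrome GTCTAGAC, found in 0.167% of 32851 such windows of 250 bases, the shorter CAGACA in 17.1%, the GC-rich Smad element GGCGCC in 9.59%, and the AP-1 element TGANTCA in 6.75%. Of the 10 genes, 7 had a window in the table, 9 windows in all. CAGACA occurred in 1 window each of Tgfb2, Tgfbr1 and Ltbp1, and GGCGCC in 1 of Tgfbr1. The window of Tgfbr2 was 58.4% G or C and that of Eng 62.4%, against a median of 52.4%.

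The Smads did not pass. Smad3, which carries the receptor signal to the genome, gave 3.64, 3.97 and 3.75 in the knockout and 3.84, 3.19 and 3.90 in wild-type cells. The groups lay on top of each other, with a difference of 0.15 ± 0.26 (95% interval -0.46 to 0.75; adjusted p = 0.787) whose sign turned with normexp background correction, with array weights and without wild-type replicate 2. A second Smad3 probe was well above background on 2 of 3 arrays of each group and was not tested.

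Smad7, the inhibitory Smad that TGF-beta itself induces, gave 1.69, 2.54 and 2.12 in the knockout and 2.53, 2.48 and 2.60 in wild-type cells. The wild-type arrays were tightly grouped (SD 0.06), and knockout replicate 2 lay among them while the other knockout arrays lay below. The difference was -0.42 ± 0.26 (95% interval -1.04 to 0.19; adjusted p = 0.393). On slide 2 it was 0.05. It was -0.21 without knockout replicate 1 and -0.63 without knockout replicate 2.

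**Figure D3:**
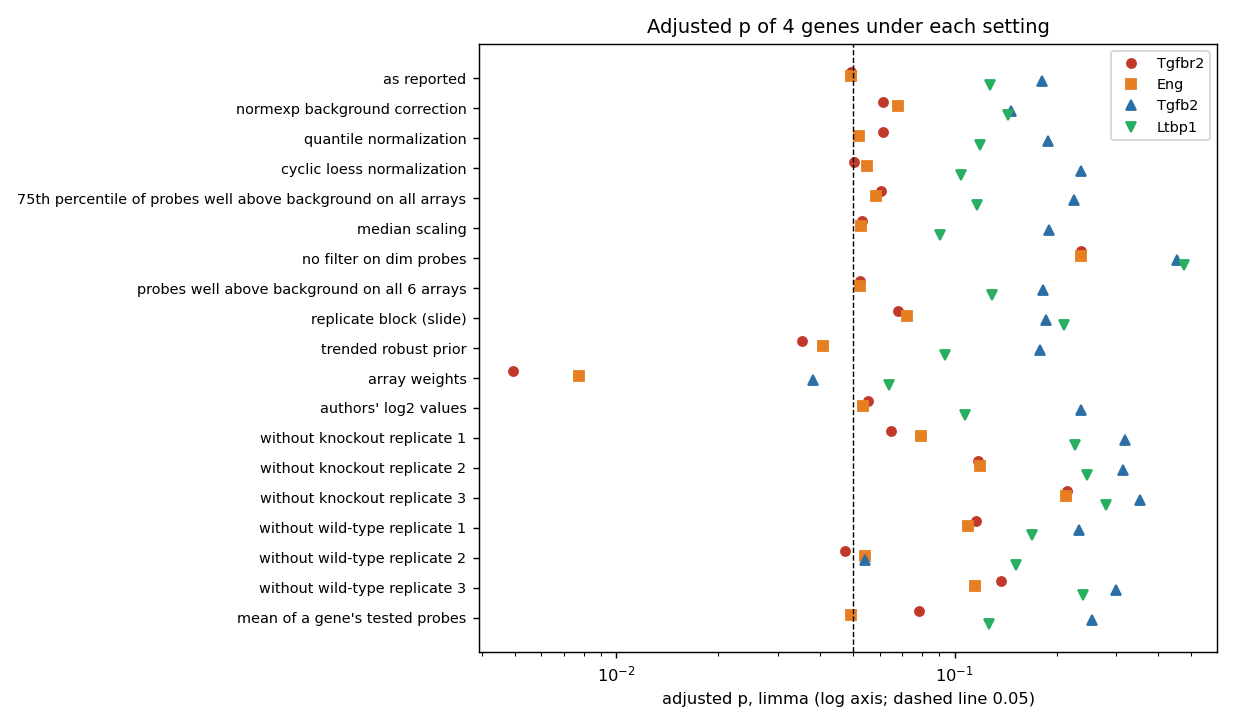
Adjusted p from limma (log axis) for Tgfbr2, Eng, Tgfb2 and Ltbp1 as reported and under each of 18 alternative settings, with the threshold of 0.05 as a dashed line. Tgfbr2 and Eng lie just left of the line as reported and right of it under most settings, and Ltbp1 is right of it throughout.

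Other genes of the pathway were taken from 4 lists, with the 10 genes left out. Of 21 tested genes of latency and activation, with a median log2 difference of 0.48, 8 were higher and 0 lower at an unadjusted p under 0.05. Of all genes 21.8% were under it in either direction. By the limma adjusted p 3 rose and 0 fell (14.3% called, against 4.79% of all genes). They were Fmod, the TGF-beta-binding proteoglycan fibromodulin (3.32 ± 0.22; adjusted p = 0.0026), Itga8, an integrin chain whose dimer binds the latent complex (3.29 ± 0.35; adjusted p = 0.0071), and Thbs1, thrombospondin, an activator of latent TGF-beta (1.13 ± 0.20; adjusted p = 0.0318). In wild-type cells the Fmod probe rose clear of background on 1 array of 3, so the size of its difference is uncertain; with normexp it was 1.92, still past the threshold. The Thbs1 call was lost with slide as a block (adjusted p = 0.0836), and without any single array but wild-type replicate 2; the Itga8 call was lost without replicate 3 of either group, and Fmod kept its call in all 6 such fits. The relatives of Ltbp1 showed smaller differences in the same direction that did not pass, Ltbp3 at 0.79 ± 0.27 (adjusted p = 0.162) and Ltbp4 at 0.48 ± 0.19 (adjusted p = 0.219). Lrrc32, a cell-surface anchor of latent ligand, differed by 0.86 ± 0.55 (adjusted p = 0.414), with wild-type replicate 1 the lowest array.

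Of 18 tested receptor partners and receptor traffic genes, with a median of 0.20, 3 were higher and 1 lower at an unadjusted p under 0.05. Of all genes 21.8% were under it in either direction. By the limma adjusted p 5.56% were called, close to the 4.79% of all genes: 0 rose and 1 fell. The gene was Amhr2, the type II receptor for anti-Müllerian hormone, which gave -4.28, -3.79 and -3.79 in the knockout and -2.33, -2.18 and -2.40 in wild-type cells (difference -1.65 ± 0.22; adjusted p = 0.0154). In knockout cells it cleared background on 1 array of 3, and with normexp the difference was -0.48 and did not pass. With slide as a block its adjusted p was 0.0519; the call was also lost without replicate 3 of either group. Of 22 other Smads and Smad regulators, with a median of 0.08, that of all genes, 3 were higher and 1 lower at the unadjusted threshold. By adjusted p 4.55% were called, also close to the share of all genes: 1 rose and 0 fell. It was Ndrg1, a stress-responsive cytoplasmic protein (1.30 ± 0.26; adjusted p = 0.0436), lost with slide as a block (adjusted p = 0.114) and without any single array but wild-type replicate 2. Smad2, the partner of Smad3, differed by -0.08 ± 0.27 (adjusted p = 0.890), Smad4, the common Smad, by 0.10 ± 0.21 (adjusted p = 0.815), and Smad6, the other inhibitory Smad, by -0.25 ± 0.18 (adjusted p = 0.470). The sign of the Smad4 difference turned with cyclic loess, with scaling to detected probes, with array weights, with the authors' log2 values and without wild-type replicate 2, and that of Smad2 without knockout replicate 1.

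The last list holds genes named as induced by TGF-beta or Smad3, and their induction in these cells was not tested. Of its 51 tested genes, 19 were higher and 3 lower at an unadjusted p under 0.05. Of all genes 21.8% were under it in either direction. The median of the list was 0.58. By the limma adjusted p 7 rose and 0 fell (13.7%, against 4.79% of all genes). The 5 of smallest p were Itga11, a collagen-binding integrin chain (4.34 ± 0.39; adjusted p = 0.0044), Lmcd1, a LIM-domain regulator of transcription (1.72 ± 0.25; adjusted p = 0.0191), the repressor Bhlhe40 (1.55 ± 0.24; adjusted p = 0.0218), the membrane-bound collagenase Mmp14 (1.62 ± 0.27; adjusted p = 0.0266) and the collagen chain Col1a1 (1.47 ± 0.26; adjusted p = 0.0307). The other 2 were Lox, which crosslinks collagen, and Col1a2. With slide as a block, Itga11 and Mmp14 of these 7 passed, together with Fap (adjusted p = 0.0490), a fibroblast activation marker named after its values were seen. Without knockout replicates 1, 2 and 3 in turn 3, 4 and 1 passed, and without wild-type replicates 1, 2 and 3 in turn 4, 13 and 1 passed, the 13 being 11 higher and 2 lower. With array weights 17 were higher and 4 lower. The calls among all tested probes moved as well, from 697 higher and 427 lower as reported. They were 2705 and 2367 with array weights, 838 and 878 without wild-type replicate 2, and 65 and 42 without knockout replicate 3. A change particular to the list was not tested. Itga11 kept its call in all 6 fits that left out 1 array.

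Several usual readouts of the pathway were not among those that passed. Ccn2, connective tissue growth factor, differed by 0.58 ± 0.44 (adjusted p = 0.489), and by 0.14 without wild-type replicate 1 and 0.93 when replicate 2 of that group was left out. The contractile genes Acta2, smooth muscle actin, and Tagln, transgelin, differed by 0.83 ± 0.69 (adjusted p = 0.530) and 0.62 ± 0.65 (adjusted p = 0.627), and turned sign, to -0.02 and -0.15, without wild-type replicate 1, on which both were lowest. The matrix genes Postn, periostin, and Col3a1 had separated groups and did not pass (2.46 ± 0.64; adjusted p = 0.0829, and 3.32 ± 0.76; adjusted p = 0.0621). Lower on every knockout array, also without passing, were the matrix protein gene Tgfbi (-2.59 ± 0.86; adjusted p = 0.148; -0.01 on slide 2), the transcription factor gene Sox9 (-2.21 ± 0.60; adjusted p = 0.0940) and the cytokine gene Il11 (-1.24 ± 0.46; adjusted p = 0.183). Genes of this list thus lay on both sides of 0, 37 of 51 of them above it. Pecam1, Acvrl1 and, of the 4 lists, the genes named here that did not pass were chosen after their values were seen.

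**Figure D4:**
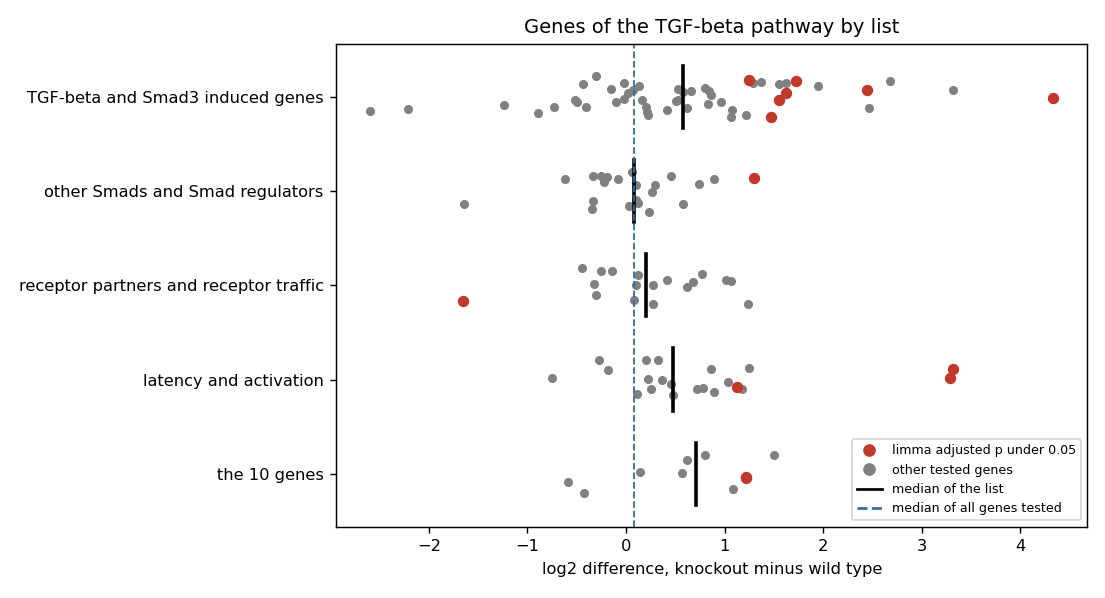
Log2 difference, knockout minus wild type, for the 10 genes and the 4 pathway lists, 1 point per gene, red where the limma adjusted p was under 0.05. Black bars mark each list's median (0.71 for the 10 genes, 0.58 for the induced genes, 0.08 for the other Smads) and the dashed line the median of all genes tested, 0.08.

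Of the marker lists for the cells a culture could hold, the mesothelial list had the most members past the test, and the fibroblast and mural lists had some, against 4.79% of all genes (3.3% higher). The 15 fibroblast markers were all measured, 2 of them rose (Col1a1 and Col1a2, which are also on the list of induced genes; 0 with slide as a block), and their summed scaled signal was 2753 to 2829 on the knockout arrays and 1379 to 2513 on the wild-type arrays. Within the wild type it was 1379 on replicate 1, 2513 on replicate 2 and 2050 on replicate 3, the order also seen for Tgfb2, Tgfb3 and Acta2. The sum is of unlogged signals, so bright markers weigh most in it. Single fibroblast markers did not share 1 order. Dcn, Pdgfra, Lum, Col6a1, Ddr2 and P4hb were lowest on wild-type replicate 2, and the rest of the list on wild-type replicate 1. The sum therefore does not rank the wild-type arrays by fibroblast content. Of 13 tested mesothelial markers 6 rose, including Bnc1 (4.18 ± 0.27), Rspo1 (3.72 ± 0.59), Msln (3.44 ± 0.56), Upk3b (4.75 ± 0.90) and Wt1 (3.78 ± 0.76). Their limma adjusted p was, in that order, 0.0026, 0.0236, 0.025, 0.0379 and 0.0436. By sign 10 of the 13 were higher, while Krt19 (-0.28), Aldh1a2 (-0.20) and Krt8 (-0.02) were lower. In wild-type cells Bnc1 cleared background on 1 array of 3 and Upk3b on 2. With normexp the Bnc1 difference was 2.34, still past the threshold. Leaving out 1 array at a time, Bnc1 kept its call in all 6 fits, Msln in 3, and Rspo1, Upk3b and Wt1 in 2 each. The summed signal of the tested mesothelial markers was 60.1 to 177 on the knockout arrays and 8.17 to 36.8 on the wild-type arrays, again lowest on wild-type replicate 1. Of 9 tested pericyte and mural markers 3 rose (Myh11, Gucy1a1 and Des) and 0 fell, and with slide as a block 3 passed. Under normexp the differences of these 3 were 1.62, 1.36 and 1.04, and only that of Myh11 passed. At an unadjusted p under 0.05 by limma, 3 were higher and 1 lower, where 21.8% of all genes were under it in either direction. By sign 6 of the 9 were higher, while Notch3 (-1.31), Cspg4 (-1.22) and Higd1b (-0.29) were lower. The summed signals of the mural markers overlapped, at 76.0 to 93.6 against 32.7 to 89.1. None of 7 leukocyte and 8 epithelial markers passed in limma, and 1 and 0 had an unadjusted p under 0.05 (Lyz2 at 1.02, Csf1r at 0.66, Hopx at -0.39 and Krt5 at -0.34 had the smallest p), and their summed signals overlapped, at 48.8 to 111 against 59.4 to 72.3 and at 32.1 to 59.8 against 39.6 to 49.9. Mrc1 and Cd79a, and Epcam, Nkx2-1 and Muc1, were not well above background on any array. The part of fibroblast, mesothelial or mural content in the differences of the 10 genes was not tested.

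**Figure D5:**
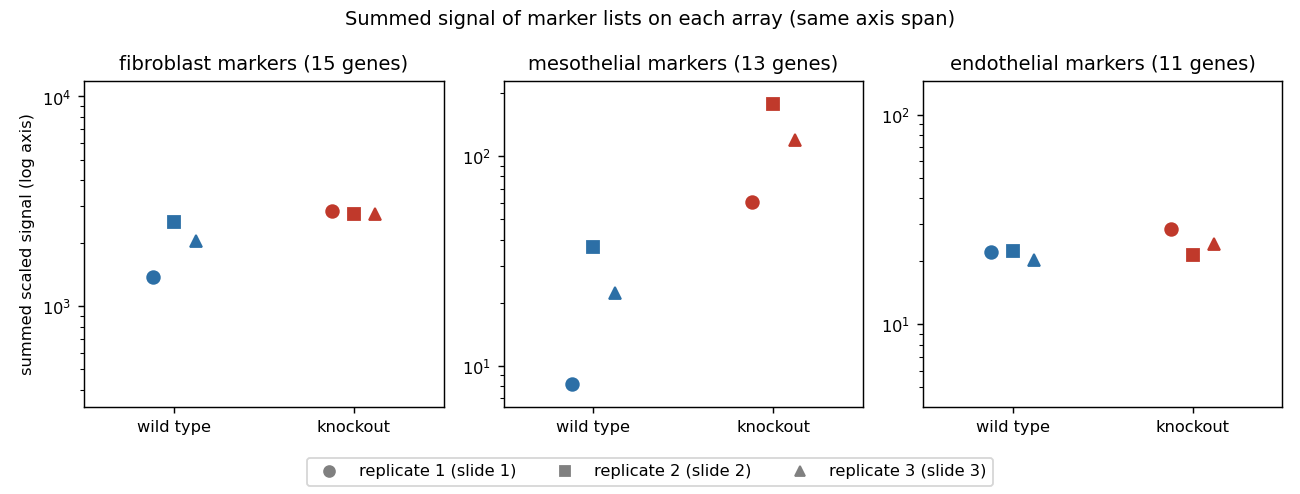
Summed scaled signal (log axis, arbitrary units relative to each array's 75th percentile) of the tested fibroblast, mesothelial and endothelial markers, with 1 point per array and the marker shape giving the slide. The knockout arrays lie above the wild-type arrays for fibroblast markers (2753 to 2829 against 1379 to 2513) and mesothelial markers (60.1 to 177 against 8.17 to 36.8), and the groups overlap for endothelial markers.

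The genes whose pattern over the 6 arrays was most like that of Tgfbr2 and Eng were sought among 12076 named genes by Pearson correlation, as a description. The 3 nearest to Tgfbr2 were Il10rb, a receptor chain of the interleukin 10 family (r = 0.997), Iftap (r = 0.997) and the intermediate filament gene Des (r = 0.996). Il10rb gave 1.27, 1.64 and 1.67 in the knockout and 0.48, 0.81 and 0.78 in wild-type cells and did not pass (adjusted p = 0.0844). Des did (2.49 ± 0.44; adjusted p = 0.0316), but in wild-type cells it cleared background on 1 array of 3, and with normexp its difference was 1.04 and did not pass. The 3 nearest to Eng were Amotl2, an angiomotin family member (r = 0.999), Adi1, an enzyme of methionine salvage (r = 0.998), and Slmap (r = 0.997). Amotl2 rose by 1.30 ± 0.25 (adjusted p = 0.0399; 0.0667 with slide as a block) and gave 3.09, 3.57 and 3.46 against 1.71, 2.13 and 2.37.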

How the data were processed

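Cy3-labelled RNA (0.5 µg) of each of 6 cultures went onto a single-colour Agilent array, per the labels' protocols. The deposited scanner tables hold spot intensity, background-subtracted by Agilent Feature Extraction 10.7.3.1 per the file headers; the submitters' processing notes name version 9.1, a difference not settled here. Flags for each spot (unit: other) come from the same deposited tables. The authors also deposited log2 values for 35844 probes, whose normalization and centring between arrays are not given in the sources used here; column medians ran from 5.51 to 5.76, and these values served as an alternative only.

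Repeated spots were averaged without flagged outliers (55681 probes), and each array's 75th percentile of log2 processed intensity was subtracted. A probe was tested (24217 were) if all 3 arrays of at least 1 group showed it well above background. The two-sided test was limma (version 3.58.1, R 4.3.3; lmFit, then eBayes), and p-values were adjusted over every tested probe by Benjamini-Hochberg. A gene is its tested probe of highest mean. Names came from RefSeq accessions (GRCm38.p6; 26413 probes, 47.4%, matched); promoters are RefSeq's. The fit was tested on simulated data.

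The members and lists were chosen with earlier results of these data known. Genes were named by rule: the 10 genes, Mmp19, up to 5 genes past the threshold per list (or the 2 of smallest p), and the 3 most correlated with each called member. Within slides, the 2 arrays' deviations from their group means had correlations of 0.0959, -0.0204 and 0.21, so arrays were not treated as pairs. The bound for Mmp19 sets wild-type signals against the lowest signal well above background on each knockout array. Alternatives covered background correction, scaling, dim-probe filters, slide as a block, the prior, array weights, the authors' values, probe averaging and leaving out each array. The values of 1 gene of the induced list are not reported here.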

Additional observations from a re-analysis of the deposited data

How the results depend on the processing

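Tgfbr2 and Eng kept the sign of their differences in all 18 alternatives and their calls in 3 each. The number of the 10 genes past the threshold, 2 as reported, was 0 with normexp, quantile, cyclic loess, detected-probe or median scaling, with other filters on dim probes and with the authors' values, 1 with probe averaging (Eng), 2 with a trended robust prior and 3 with array weights (Tgfb2 in addition); the fits that left out 1 array gave 0 to 1. With the replicate block, which here is the slide block, 0 of the 10, 5 of the pathway genes (12 as reported) and 385 of all probes (1124 as reported) passed. The probe count was 633 with normexp, 113 with no filter, 650 with probes well above background on all arrays and 5072 with array weights, and 107 to 1716 without 1 array. The pathway count was 3 with no filter, 36 with array weights and 2 to 19 without 1 array. Of all probes past the threshold 62% were higher as reported, 51.9% with detected-probe scaling, which moved the median of all genes from 0.08 to -0.03, 71.7% with no filter; omitting wild-type replicate 2 gave 48.8%, and omitting replicate 3 of that group 76.7%. The fitted Mmp19 difference, taken against signals not above background and so uncertain in size, was -1.40 with normexp and -4.62 with no filter, neither past the threshold, and -5.31 to -4.24 without 1 array. Signs turned for Smad3 (-0.000657 with normexp, -0.0555 with array weights, and -0.0788 to 0.27 without 1 array) and for Smad4 (-0.00207 with cyclic loess, -0.0137 with detected-probe scaling, -0.0517 with array weights, -0.0249 with the authors' values). Without 1 array the ranges were -0.04 to 0.19 for Smad4, -0.0693 to 1.08 for Tgfbr3, -0.0172 to 1.43 for Acta2, -0.15 to 1.21 for Tagln and -0.29 to 0.16 for Smad2. The cause was not tested. The number of arrays limits the precision.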

Other observations

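Genes most like Tgfb2 and Tgfb3 over the 6 arrays were looked up after the values of these ligands had been seen, and are given as a description with no test of the likeness. The nearest to Tgfb2 were Gngt2, a G protein gamma subunit gene (r = 0.998), C1ql3 (r = 0.995) and Cfap299 (r = 0.994). C1ql3 gave 2.02, 1.80 and 1.46 in knockout replicates 1, 2 and 3 and -2.63, 1.09 and -0.17 in wild-type replicates 1, 2 and 3. Its lowest array was wild-type replicate 1, as for Tgfb2, which the choice by correlation over the same arrays makes likely. The nearest to Tgfb3 were Atp1b1, a subunit gene of the sodium pump (r = 0.997), Pdlim1 (r = 0.997) and the caveolar gene Cavin3 (r = 0.996). Atp1b1, chosen in the same way, gave 2.84, 2.91 and 2.76 in the knockout and -0.31, 3.12 and 2.12 in the wild type. None of these 6 genes passed the limma test, with adjusted p from 0.156 to 0.442.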
